A study of Homo sapiens with 2 samples.

Results

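The 6 spliceosomal snRNA genes described here are RNU2-2 and RNVU1-27, which encode a U2 and a U1 RNA of the major spliceosome, and RNU11, RNU12, RNU6ATAC and RNU4ATAC, which encode RNAs of the minor spliceosome. They were chosen with earlier results of these data known. The 2 major spliceosome genes are the only 2 with an interval among 36 genes whose symbol names a major spliceosome RNA. The number of genes with an interval is therefore partly set by the choice. A distinct binding interval was assigned to a gene when its midpoint lay inside the gene's RefSeq span, whatever gene the deposited list gave for it. Of the 1406 distinct intervals in the list, 5 were assigned in this way, 1 to each gene except RNU4ATAC, which held 0. The intervals were mapped by HITS-CLIP: ultraviolet light links RNA to bound proteins, an antibody pulls down 1 protein with its RNA fragments, and the fragments are sequenced as tags. The cells were MDA-231-LM2, a human breast cancer line selected from MDA-MB-231 for spread to the lung, with no genetic change or treatment in the labels. The single group consisted of 2 biological replicates with an antibody against endogenous SF3B1, and the extract protocol of both instead names SNRBP2 as the target. There was no control antibody, input or second condition. The authors pooled the tags of both replicates before calling peaks, so no value below has a replicate error, the depth of each library is unknown, and no difference could be tested.

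Most introns are removed by the major spliceosome, in which the U1 snRNA pairs with the 5′ splice site, U2 pairs with the branch point, and U4, U5 and U6 enter together as the tri-snRNP. A small class of introns is removed by the minor spliceosome, in which U11 takes the place of U1, U12 that of U2, and U4atac and U6atac those of U4 and U6, while U5 is shared. SF3B1 belongs to the SF3b complex, which is a part of both the U2 particle and the U11/U12 particle and contacts the branch point region.

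The list as a whole held mostly low intervals, with heights from 3 to 248 tags, a median of 7 and quartiles at 6 and 11. Height is the number of pooled tags at the top of a peak, without normalization, as the authors deposited it. Among markers of the cells, VIM and AXL were the 2 of 5 basal or mesenchymal breast markers with an interval, and 0 of 5 luminal markers had one. Over all protein-coding genes the share was 5.27%, and sets of 5 genes are too small to be told apart by such counts. A peak list is no measure of transcript level, so the marker counts do not check the cell type.

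Both spliceosomes were represented among the tallest intervals of the list. The U2 gene RNU2-2 carried the tallest interval of all, and 3 of the 4 minor spliceosome genes carried intervals of 49 to 78 tags. The U1 gene RNVU1-27 carried an interval of 5 tags, below the median of the list. Of the 5 intervals, 4 reached at least 5 times the median height (35 tags or more), against 3.20% of all intervals. Together they summed to 453 tags, which was 2.89% of the summed heights from 0.356% of the intervals. RNU2-2 held 54.7% of that sum and the 3 minor spliceosome genes 44.2%.

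**Figure D1:**
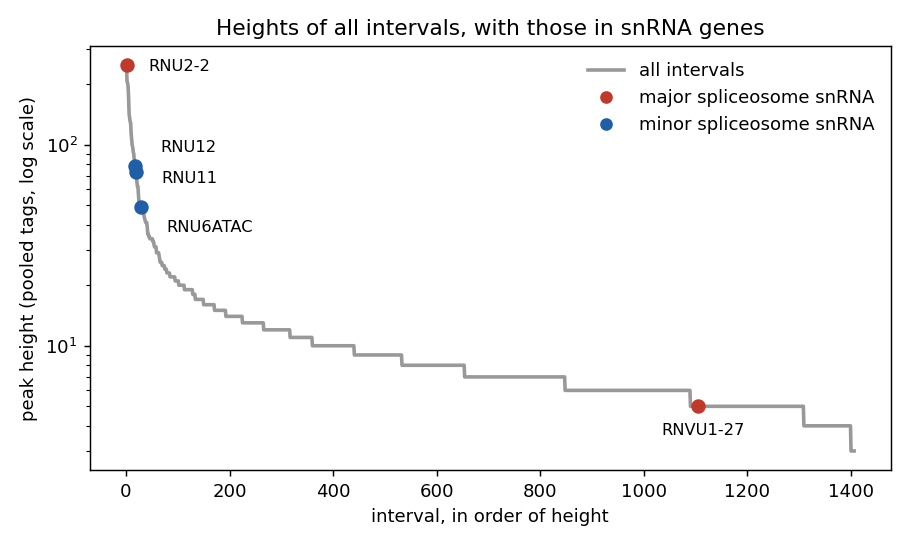
Peak height in pooled tags (log scale) of all 1406 distinct intervals, placed from the tallest to the lowest; red points are the intervals in major and blue points those in minor spliceosome snRNA genes. RNU2-2 stands first, RNU12, RNU11 and RNU6ATAC lie at 78, 73 and 49 tags on the steep part of the curve, and RNVU1-27 lies at 5 tags near its lower end.

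RNU2-2, 1 of 3 genes whose symbol names U2, held 1 interval of 248 tags at chr11:62841670-62841715 of hg38, minus strand. Other positions use this build too. The gene spans chr11:62841619-62841809, inside the protein-coding gene WDR74, whose span ends at the same base, and the deposited list gives the interval under WDR74 alone. WDR74 held no other interval. The height was 35.4 times the median of the list. Within 20000 nt of RNU2-2 the list held 2 other intervals, both listed under SNHG1, a host gene of snoRNAs, and neither exceeded 22 tags.

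RNVU1-27, one of the variant U1 genes of chromosome 1, spans chr1:148522601-148522765 and held an interval of 5 tags at chr1:148522680-148522721 on the plus strand. Its height was shared by 219 intervals of the list, and 6.97% of intervals were lower. The list gives this interval under NUDT4B and NUDT4P2, and neither of their RefSeq spans holds its midpoint. The interval in RNU2-2 was 49.6 times as tall as the one in RNVU1-27, so the 2 major spliceosome genes lay near opposite ends of the list and their median of 126.5 tags describes neither.

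Among the minor spliceosome genes, RNU12, the U2 counterpart, held the tallest interval, of 78 tags at chr22:42615259-42615348 on the plus strand, inside a gene that spans chr22:42615244-42615393. RNU11, the U1 counterpart, held 73 tags at chr1:28648611-28648655 on the plus strand, inside chr1:28648600-28648734. RNU6ATAC, the U6 counterpart, held 49 tags at chr9:134164495-134164537 on the minus strand, inside chr9:134164439-134164564. These heights were 11.1, 10.4 and 7 times the median of the list, for RNU12, RNU11 and RNU6ATAC in turn, and placed the intervals 17th, 19th and 29th of 1406, with ties at 78 and at 73 tags. RNU12 and RNU11 differed by a factor of 1.07, and RNU12 exceeded RNU6ATAC by 1.59. Without values for the single replicates, the order of the 3 genes was not separated from error. The interval in RNU2-2 was 3.18 times as tall as that in RNU12 and 3.40 times as tall as that in RNU11.

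RNU4ATAC, the U4 counterpart, which spans chr2:121530880-121531009 within the protein-coding gene CLASP1, held no interval, and none lay within 20000 nt of it. CLASP1 and CLASP1-AS1, the antisense gene that also covers the locus, held 0 intervals as well. The list contains only peaks that passed the authors' significance filter, so whether RNU4ATAC carried tags below it is not known.

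Set against other small noncoding RNA genes of at most 500 nt, rRNA genes left out, the 4 tall snRNA intervals stood near the top. The 48 intervals in such genes outside the 6 snRNA genes had a median of 11 tags and a range of 5 to 203. None of the 48 exceeded RNU2-2, and 3 exceeded RNU12 and RNU11: those of RMRP, the RNA of RNase MRP, of RN7SK, which restrains transcription elongation, and of the vault RNA gene VTRNA1-2. The C/D box snoRNA gene SNORD96A was the only further one above RNU6ATAC. Of the 48, 47 were taller than the interval in RNVU1-27.

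The intervals fell in different parts of the snRNAs. Positions were counted from the 5′ end of the RefSeq span in the direction of the interval's own strand, because the gene table gives no strand. In RNU11 the interval covered nucleotides 12 to 56 of 135, so it began 11 nt after the 5′ end, the end of U11 that pairs with the 5′ splice site. In RNU12 it covered nucleotides 16 to 105 of 150, and in RNU6ATAC nucleotides 28 to 70 of 126. By number, the 3 minor spliceosome intervals all covered nucleotides 28 to 56, a stretch of 29 nt. The 3 RNAs were not aligned to each other, so equal numbers do not mark a shared site. Their midpoints lay between 25.2% and 40.3% of the length of the RNA. In RNU2-2 the interval covered nucleotides 95 to 140 of 191, with its midpoint at 61.5% of the length, so it lay downstream of the 5′ part of U2 that pairs with the branch point. The interval in RNVU1-27 covered nucleotides 80 to 121 of 165, with its midpoint at 60.9%. Counted from the other end of the span, the midpoints would lie at 39% in RNU2-2, 39.7% in RNVU1-27, 75.6% in RNU11, 60.3% in RNU12 and 61.9% in RNU6ATAC. The deposited list gives the last 3 under their own gene numbers, and gives neither RNU2-2 nor RNVU1-27.

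**Figure D2:**
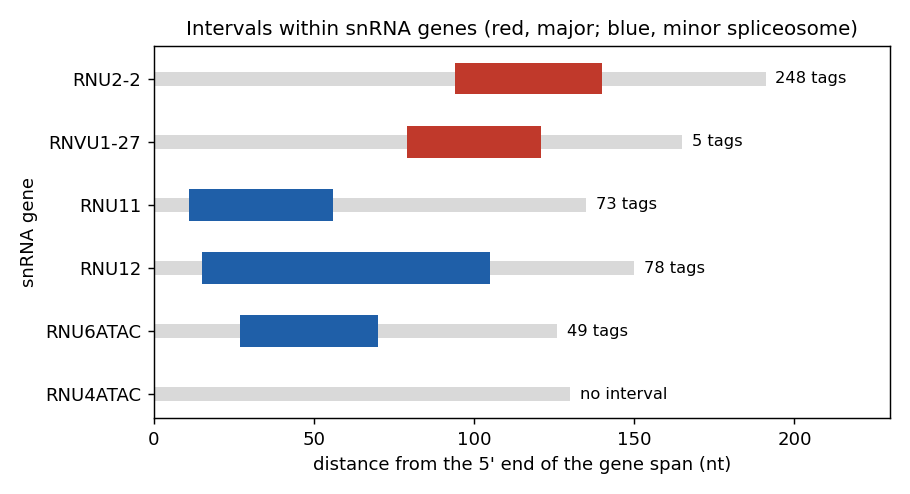
Location of each interval (thick bar; red, major and blue, minor spliceosome) within the RefSeq span of its snRNA gene (grey), in nt from the 5′ end, with the peak height in tags. The 3 minor spliceosome intervals have midpoints in the first 40.3% of the RNA, that of RNU2-2 lies at 61.5%, and RNU4ATAC has none.

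The interval in RNU12 was also unusually wide. Per the file's name, the authors bounded each interval at a set part of the height of its peak. The median width over the list was 43 nt. The intervals in RNU2-2, RNU11, RNU6ATAC and RNVU1-27 were 46, 45, 43 and 42 nt wide, whereas that in RNU12 was 90 nt wide and covered 60% of the gene. Only 3 of the 1406 intervals were at least 90 nt wide. Intervals of at least 5 times the median height had a median width of 45 nt. Of these 45 intervals, 2 were at least 90 nt wide, that in RNU12 among them. Most tall intervals were thus narrower, although 2 of the 3 intervals of this width were tall. In RNU11 and RNU6ATAC the interval covered 33.3% and 34.1% of the gene, and in RNU2-2 and RNVU1-27 24.1% and 25.5%.

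The height of an interval was next set against the height that the authors' deposited table expects for the gene it lists. In that table RNU11, RNU6ATAC and RNU12 had expected heights of 26.41, 17.05 and 8.73 tags, which ranked 5th, 7th and 9th among 1191 listed genes, whose median was 0.03. The genes above RNU11 were RMRP, the mitochondrial rRNA genes RNR2 and RNR1, and VTRNA1-2. Height over expected height was 8.93 for RNU12, 2.87 for RNU6ATAC and 2.76 for RNU11 by the authors' deposited table. All 3 were below 10, against 1.77% of the 1412 rows with an expected height above 0, whose median ratio was 167. RNU12 therefore exceeded its listed expected height by a larger factor than RNU11 did, although their heights differed by a factor of only 1.07. The span over which the authors formed the expected height of each gene is not given in the sources used here. A difference in span was thus not separated from a difference between the 2 RNAs. The p-values in the authors' deposited table were 3.94e-10 for RNU12, 6.46e-08 for RNU11 and 1.25e-04 for RNU6ATAC, the latter having the lowest height of the 3.

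Ratios well below the median of the list were shared by all rows with a high expected height. The table held 18 rows with an expected height of at least 8 tags, from 9 genes, and their ratios ran from 2.03 to 21.3 with a median of 3.27. Besides the 3 snRNA genes, these were MALAT1, RMRP, RN7SK, RNR1, RNR2 and VTRNA1-2. Rows of MALAT1 with ratios of 10.9, 13.2 and 21.3 were not below 10. No row among the 18 had a height below 34 tags, whereas rows with an expected height under 0.1 began at 4 tags. Within these 18 rows, RNU12 exceeded the median ratio and RNU11 and RNU6ATAC lay below it. How the authors judged significance is not given in the sources used here, so it is not known whether lower peaks in such genes could have been listed.

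For the major spliceosome genes, no ratio to the gene's own expected height could be given, because the list names neither gene. Under WDR74 the interval in RNU2-2 had an expected height of 1.44 tags and a ratio of 172. The interval in RNU11 shows how much this depends on the listed gene, since it appears in 2 rows: under RNU11 with an expected height of 26.41, and under TAF12-DT, the long noncoding RNA gene that contains it, with 0.64. The same 73 tags gave ratios of 2.76 and 114, a 41.3-fold difference. Set side by side under their longer overlapping genes, RNU2-2 (172) and RNU11 (114) differed by a factor of 1.51. WDR74 is 8905 nt long, TAF12-DT 5546 nt and RNU11 135 nt. For the interval in RNU11 the expected height was lower under the longer gene, and how far gene length sets these ratios was not tested. The factor of 1.51 therefore does not compare the 2 snRNAs themselves. The expected height of RNVU1-27's listed genes is given as 0.00, so its ratio could not be formed. Naming under another gene was common: of 53 intervals in small noncoding RNA genes, 45 were listed only under other genes, 7 only under the small RNA gene itself, and 1, that of RNU11, under both.

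**Figure D3:**
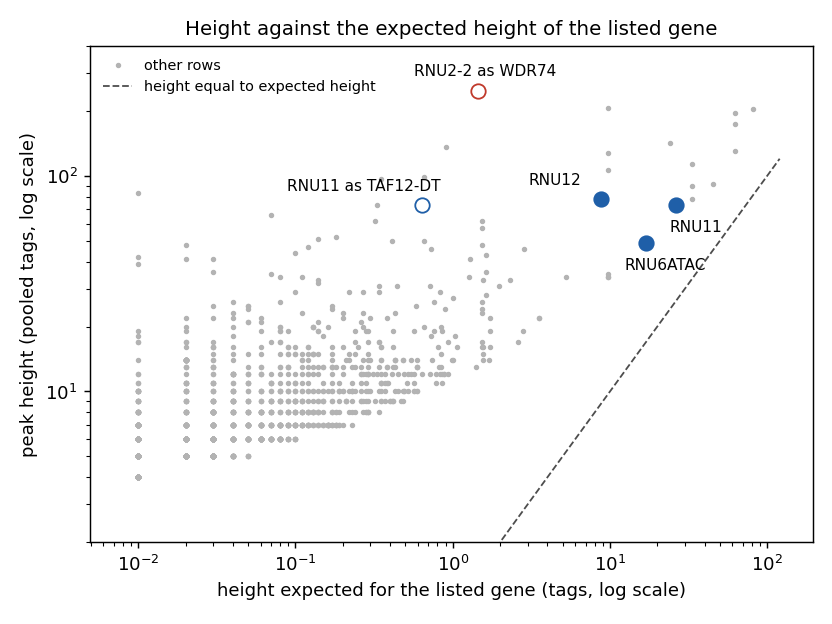
Peak height against the height expected for the listed gene, both in tags on log scales, for the 1412 rows with an expected height above 0; filled circles are snRNA intervals under their own gene, open circles under another gene, and the dashed line marks equality. RNU11 appears in 2 places, at 26.41 and at 0.64 expected tags, and the lower edge of the cloud rises with the expected height.

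The 5 intervals were then compared with those in the other annotated snRNA genes. Families were read from gene symbols. RefSeq so names 36 genes of U1, U2, U4, U5 and U6, of which 2 (5.56%) held an interval. It names 4 genes of U11, U12, U4atac and U6atac, of which 3 (75%) did. A further 86 snRNA genes have no family in their symbol, so any copies of these RNAs among them are not counted. Over all 156 genes of the snRNA class, the share with an interval was 4.49%. By family, 1 of 21 U1 genes, 1 of 3 U2 genes, 0 of 2 U4 genes, 0 of 5 U5 genes and 0 of 5 U6 genes held one. The number of annotated copies also differed between the spliceosomes, with 1586 pseudogenes for the major and 64 for the minor RNAs, and its part in the difference was not tested. RNU7-1, the U7 gene of histone mRNA processing, held none, and RN7SK held 1 of 142 tags. LOC124904146, an snRNA gene of 192 nt with no family in its symbol, held the remaining one, of 10 tags, over nucleotides 5 to 47. The list gives it under RNU2-1, a U2 gene by its symbol, and under CCDC200. It was not counted with the U2 genes here.

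Pseudogenes of the minor spliceosome RNAs held no interval. RefSeq lists 41 pseudogenes of U6atac, 17 of U4atac, 5 of U11 and 1 of U12, and 0 of these 64 held one. Over all 1650 pseudogenes of both spliceosomes the share was 1.33%, so 0 of 64 does not set the minor ones apart. Of 1586 pseudogenes of the major spliceosome RNAs, 22 (1.39%) held an interval. The tallest, of 83 tags, lay in the U1 pseudogene RNU1-11P and is listed under PHACTR1. It exceeded the intervals in RNU12, RNU11 and RNU6ATAC (78, 73 and 49 tags). RNU1-11P held another of 39 tags, and the U5 pseudogene RNU5E-6P held 1 of 25 tags. The 10 intervals in U6 pseudogenes were of 3 to 11 tags with a median of 7.5, although no U6 gene held one. The 5 intervals in U2 pseudogenes were of 7 to 42 tags and had midpoints between 24.1% and 31.6% of the length of the copy, upstream of the 61.5% seen in RNU2-2. All 5 copies, of 113 to 189 nt, are shorter than RNU2-2 (191 nt), and their direction was taken from the interval. These positions are therefore not aligned base by base.

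**Figure D4:**
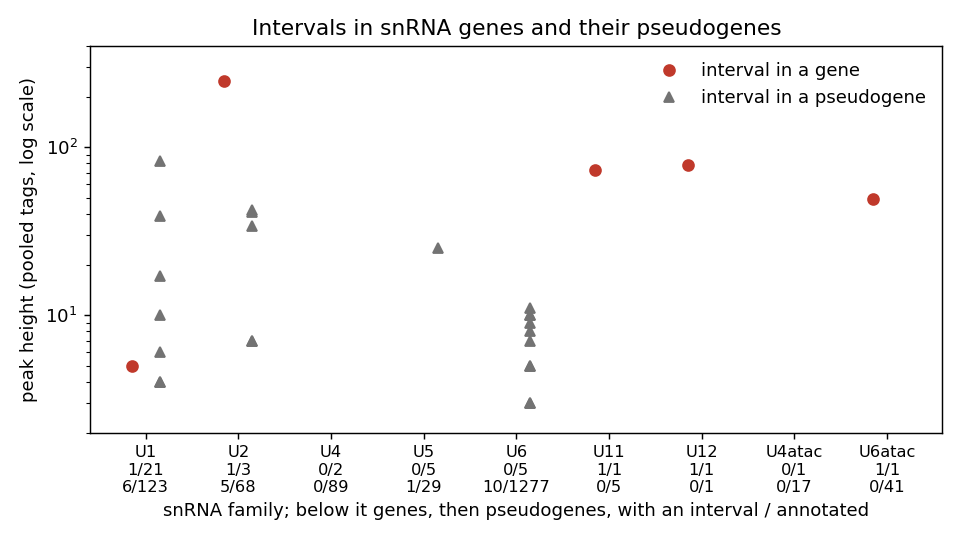
Peak height in pooled tags (log scale) of each interval in an snRNA gene (red circles) or pseudogene (grey triangles), by family; the fractions under each family give the genes and then the pseudogenes with an interval over those annotated. U11, U12 and U6atac each have 1 interval, in the gene, whereas U5 and U6 intervals lie in pseudogenes only.

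Protein genes of the same pathway held intervals at about the share of the background. Over the 7 lists, 5 of 114 genes (4.39%) held one, against 5.27% of all protein-coding genes. The share differed between the lists, from 0 to 16.7%. It also depends on the genes chosen, since other splicing factor genes with an interval, such as SF1 (8 tags) and U2AF2 (7 tags), were in none of them. Of 15 genes for proteins of the minor spliceosome, such as ZRSR2, RNPC3 and SNRNP48, 0 held an interval. The 17 genes of tri-snRNP proteins and the 15 of the Sm and LSm rings that bind snRNAs also held 0. Of 12 genes of the SF3a and SF3b complexes and the U2 particle, SNRPA1 held 2 intervals of up to 10 tags and SF3B1 1 of 9 tags. Of 8 genes of U1 proteins and their partners, LUC7L3, a U1-associated factor, held 1 interval of 47 tags. Of 20 genes of snRNP assembly and export, GEMIN7 of the SMN complex held 1 of 5 tags, and of 27 genes of snRNA transcription and processing, INTS1 of the Integrator complex held 1 of 7 tags. The lists are short, transcript levels were not known, and no list was tested.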

How the data were processed

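The 2 samples form 1 group, and the authors deposited 1 peak list of their pooled tags. The submitters' processing notes name BWA 0.7.17, cutadapt 2.3 and the build hg38. Peak caller and threshold are not given in the sources used here. As deposited by the authors, the signal is the peak height in tags, not normalized. The deposited text field, of another kind, adds a gene number, an expected height and a p-value. Of 1587 rows, 1406 differed in chromosome, start, end and strand. Gene numbers were named and spans taken from RefSeq GRCh38.p14 (1190 of 1191 matched). Only midpoints decided an assignment; ratios used rows with an expected height above 0 (1412). Members, lists and comparisons were chosen with earlier results of these data known. All members, other snRNA genes with an interval, listed host genes and up to 3 genes per list were named; the limit of 8 tags and the share of 5 times the median were set after values were seen. No test was run, and no sequence of these genes was in the reference used here. Python 3.11.15, numpy 2.4.6, pandas 2.3.3 and matplotlib 3.10.9 were used. Alternatives were overlap of 1 nt, spans extended by 50 nt, rows under the snRNA gene only, rows as listed, intervals above the median, merging within 50 nt, and means.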

Additional observations from a re-analysis of the deposited data

How the results depend on the processing

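Of 31 values recomputed under alternatives, 8 moved, where a count of genes was taken as moved past a factor of 1.5 and any other value at any change. With rows listed under the snRNA gene only, the genes with an interval fell to 3 and the summed height to 200 tags, since RNU2-2 and RNVU1-27 are not named in the list. With rows as listed the sum was 531 tags and the median of the major genes 5, because repeated rows count again. With intervals above the median height, which removes RNVU1-27, these were 448 and 248, and the genes with an interval were 4 in place of 5. With means the minor genes had a height of 66.67 tags and a ratio of 4.86. No paired analysis was possible because there is 1 group and 1 pooled list, and leaving out a replicate could not be done for the same reason. With rows under the snRNA gene only, no value for the major genes exists, and merged intervals have no expected height.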
